A study of Mirounga angustirostris with 8 samples.

Results

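The nuclear genes of respiratory complexes I, II and V were examined in skeletal muscle of northern elephant seals (NES), as the entries of the count table whose symbol starts with NDUF or ATP5 or is SDHA, SDHB, SDHC or SDHD and whose reads summed to at least 80 over all libraries. This took in 65 of the 24342 named genes, with 0 further symbols of these families under the minimum, and each of the 65 was also among the 14315 genes that passed the filter on low counts and were tested. They comprised 36 complex I subunits, 8 complex I assembly factors with NDUFAF symbols, 4 complex II subunits, 14 complex V subunits and 3 genes whose symbols belong to these families although their products are not counted as subunits here (NDUFA4, NDUFA4L2 and ATP5S). NDUFC2 and ATP5SL were not analysed here. The rule for the set used no expression difference, only the symbols and the summed count, but it was chosen with earlier results of these data known.

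Muscle was taken by biopsy from the longissimus dorsi of wild adult female NES at the end and at the start of the annual molt, when the animals stay ashore, fast and move little. The post-molt libraries (seals 4448, 5572, 9678 and X410) came from late-molt biopsies, collected before the return to sea at an interval of 34 days, a mean over the study's animals that its methods count from the early biopsy, and the pre-molt libraries (seals 5572, 5842, 6762 and C497) from biopsies collected within 5 days of arrival on shore. Both groups were sampled ashore and no treatment was tested, so the comparison is of late with early molt. Per the study's methods all animals were sedated for the biopsy with Telazol, ketamine and diazepam and given lidocaine at the site. The 8 libraries came from 7 seals, of which 1 (5572) gave a library in each group. The study reports that low-quality input RNA made some samples sequence poorly, and it kept the samples with the most uniquely aligned reads of each condition. In its alignment summary post-molt seal 9678 had the lowest share of uniquely mapped reads and pre-molt seal 5842 the next lowest. The part of RNA or alignment quality in the differences below was not tested. The values of each gene are given below in that order of seals, as CPM, the read count scaled to library size, here with TMM factors, and not to gene length.

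Complex I takes electrons from NADH in its matrix arm, passes them along a flavin and a chain of iron-sulfur clusters to ubiquinone, and pumps protons through its membrane arm. Complex II oxidises succinate in the citric acid cycle and also reduces ubiquinone, but pumps no protons. Complex V, the ATP synthase, lets protons back through a ring of c subunits whose rotation drives ATP synthesis in the F1 head. Complex I and complex V also hold subunits made in the mitochondrion, which were not analysed here, as were complexes III and IV. In muscle these enzymes supply most of the ATP for sustained work, and slow, oxidative fibers hold more of them than fast fibers do.

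The libraries held 30774895 to 61229829 counts post-molt and 37905311 to 56150332 pre-molt, over all entries with or without a gene name. Of the named genes, 12678 to 18047 had at least 1 read post-molt, against 14168 to 16820 pre-molt. The tissue was skeletal muscle by its markers: the 7 muscle fiber genes listed summed to 163922 to 234379 CPM post-molt and 177409 to 280710 CPM pre-molt, with 0 of them missing from any library. Of 9 blood genes listed, 4 had an entry. The erythroid gene SLC4A1 was at 0 in every library, while HBM, ALAS2 and PPBP were at 0 in some libraries and had reads in others. ALAS2, the 1 blood gene tested, had 0 to 1.39 CPM post-molt and 0 to 0.85 CPM pre-molt. Among all genes tested 31 (0.217%) were higher and 19 (0.133%) lower post-molt at an adjusted p under 0.05 in edgeR's quasi-likelihood test, and 3.07% were higher and 2.92% lower in DESeq2 among the 10745 genes to which it gave an adjusted p. Because the samples are bulk tissue, fewer cells of a type and less RNA per cell cannot be told apart.

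Most genes of the set were lower post-molt, by small amounts that did not pass the test after adjustment over all genes. The log2 fold change of post-molt over pre-molt was below 0 for 55 of the 65 genes (84.6%), where 53.6% of all genes tested were below 0. The median over the set was −0.37, beside −0.04 over all genes, and the values ran from −1.28 for NDUFA4L2 to 0.68 for NDUFA5. At an adjusted p under 0.05, 0 of the 65 were called by edgeR, which called 0.217% of all genes higher and 0.133% lower. Limma-voom also called 0, where it called 0.657% of all genes in either direction. DESeq2 called 2 of the 64 genes to which it gave an adjusted p, both lower, the c-ring gene ATP5G2 and the flavoprotein gene NDUFV1. This is near its share over all genes, of which it called 2.92% lower and 3.07% higher. At an unadjusted edgeR p under 0.05, 12 genes were lower, where 6.22% of all genes were, and 1 was higher, where 5.2% of all genes were. The post-molt and pre-molt libraries did not overlap for 5 genes, all lower post-molt (ATP5G2, ATP5E, NDUFV1, NDUFV2 and NDUFAF3), against 5.11% of all genes, and for 0 genes that were higher, against 4.04%.

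**Figure D1:**
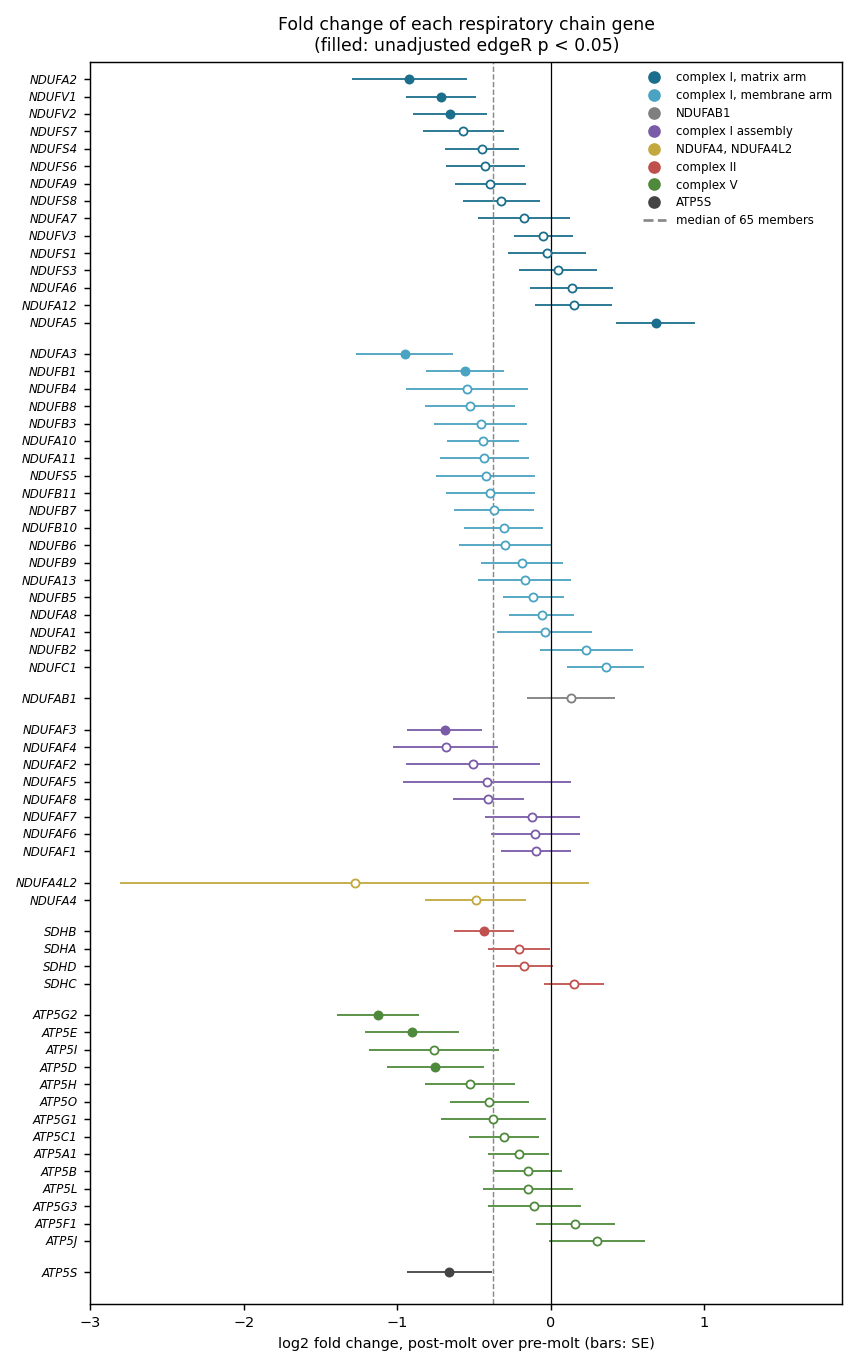
Fitted log2 fold change of post-molt over pre-molt (x axis, edgeR, points with standard errors) of the genes of the set (y axis, 1 not drawn), ordered within groups by role, with filled points for an unadjusted p under 0.05. Most points lie left of 0, the dashed line marks the median of −0.37, and NDUFA5 is the filled point to the right of 0.

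The size of this difference depended to a large part on single libraries, the set's own extremes. The mean log2 CPM over the 65 genes was 5.93, 6.61, 6.38 and 6.63 in the post-molt libraries and 6.78, 7.29, 6.33 and 6.40 in the pre-molt libraries. The lowest value was in post-molt seal 4448 and the highest in pre-molt seal 5842, and the remaining libraries of both groups overlapped, with pre-molt seals 6762 and C497 below post-molt seals 5572 and X410. Gene by gene, 44 of the 65 (67.7%) were lowest in post-molt seal 4448, where 23.4% of all genes tested had their lowest value, and 56 (86.2%) were highest in pre-molt seal 5842, where 20.4% of all genes had their highest. Relative to each gene's own mean over the libraries, the median deviation was −0.57 log2 units in post-molt seal 4448 and 0.72 in pre-molt seal 5842, and between −0.18 and 0.23 in the others. The spread between seals was wider pre-molt for 49 of the genes and wider post-molt for 16, with a median SD of 0.34 log2 units post-molt and 0.49 pre-molt. Over all genes tested the median SDs were 0.48 post-molt and 0.49 pre-molt.

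**Figure D2:**
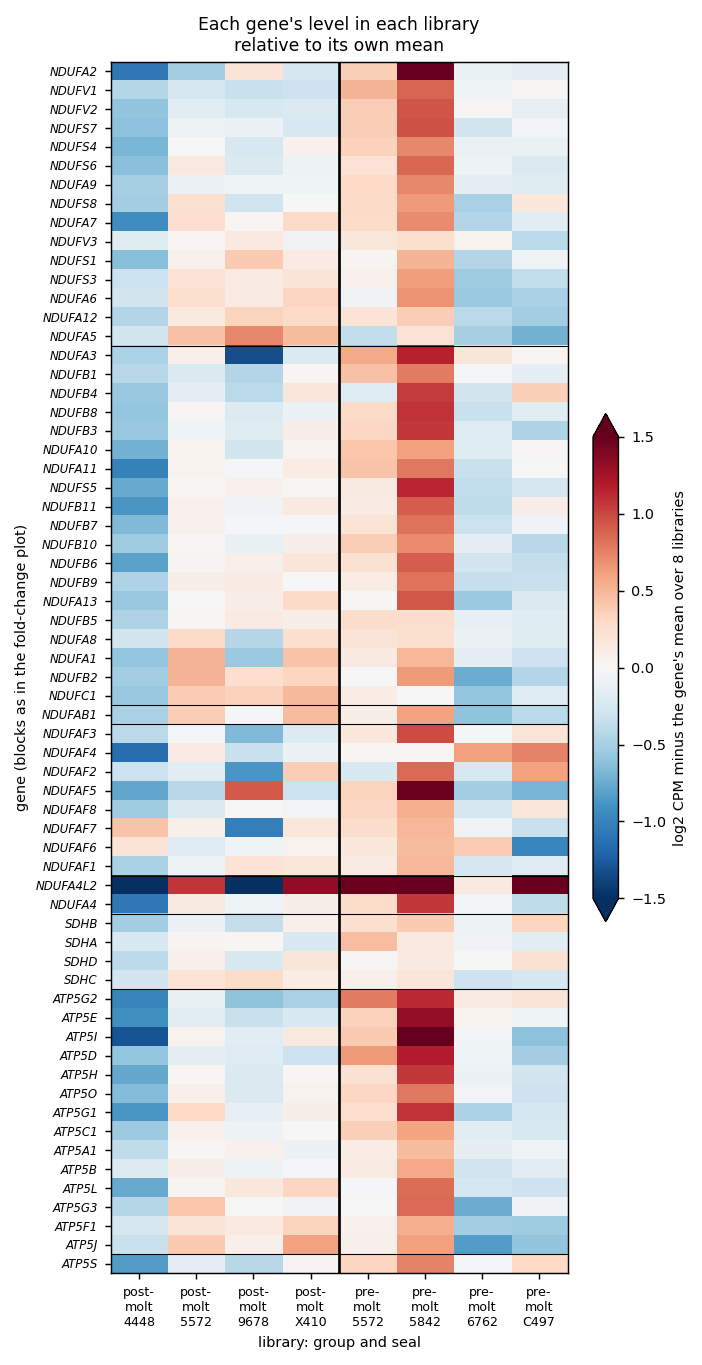
Log2 CPM of each gene (rows, 1 not drawn) in each library (columns, post-molt left of the black line and pre-molt right of it) minus the gene's mean over the 8 libraries. The column of post-molt seal 4448 is blue for most genes and that of pre-molt seal 5842 is red, and over the whole set 44 genes were lowest in seal 4448 and 56 highest in seal 5842.

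With pre-molt seal 5842 left out, 38 of the 65 genes were below 0 and the median was −0.08, beside −0.02 over all genes, with 4 genes lower and 3 higher at an unadjusted edgeR p under 0.05, where 4.56% of all genes were lower and 4.73% higher. With post-molt seal 4448 left out, 46 were below 0, the median was −0.22, and 5 genes were lower and 2 higher, where 5% of all genes were lower and 4.03% higher. Leaving out both, a setting chosen after the data were seen, put 32 genes below 0 with a median of 0.02, and 2 genes were lower and 7 higher at an unadjusted edgeR p under 0.05, where 4.44% of all genes were lower and 4% higher. The 7 were NDUFA5, NDUFA6, NDUFAB1, NDUFB2 and NDUFC1 of complex I and ATP5F1 and ATP5J of complex V, with log2 fold changes of 0.53 to 1.08, and 0 of them had an adjusted p under 0.05. Without both seals the set no longer lay below all genes. These were the set's lowest post-molt and highest pre-molt libraries, so leaving them out raises its mean difference by construction. That fit therefore cannot show whether the direction of the set would hold in other seals. ATP5G2 and NDUFV1 were lower, and NDUFA5 higher, at an unadjusted p under 0.05 in each of the 3 fits without post-molt seal 4448, pre-molt seal 5842 or both. For NDUFA5 these were also its own lowest post-molt and highest pre-molt libraries, so leaving them out raises its difference by construction. With pre-molt seal 5842 and post-molt seal 9678 left out, the libraries with the lowest shares of uniquely mapped reads, NDUFV1 had an unadjusted edgeR p of 0.0561. ATP5G2 and NDUFA5 stayed under 0.05 in that fit. In the 8 fits that left out 1 library each, 4 genes had an unadjusted p under 0.05 every time, ATP5G2, NDUFV1, ATP5E and NDUFA3, each of them lower post-molt. For ATP5E and NDUFA3 the unadjusted edgeR p was 0.0477 and 0.0478 without pre-molt seal 5842. Neither was under 0.05 when post-molt seal 9678 or 4448 was left out together with it.

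**Figure D3:**
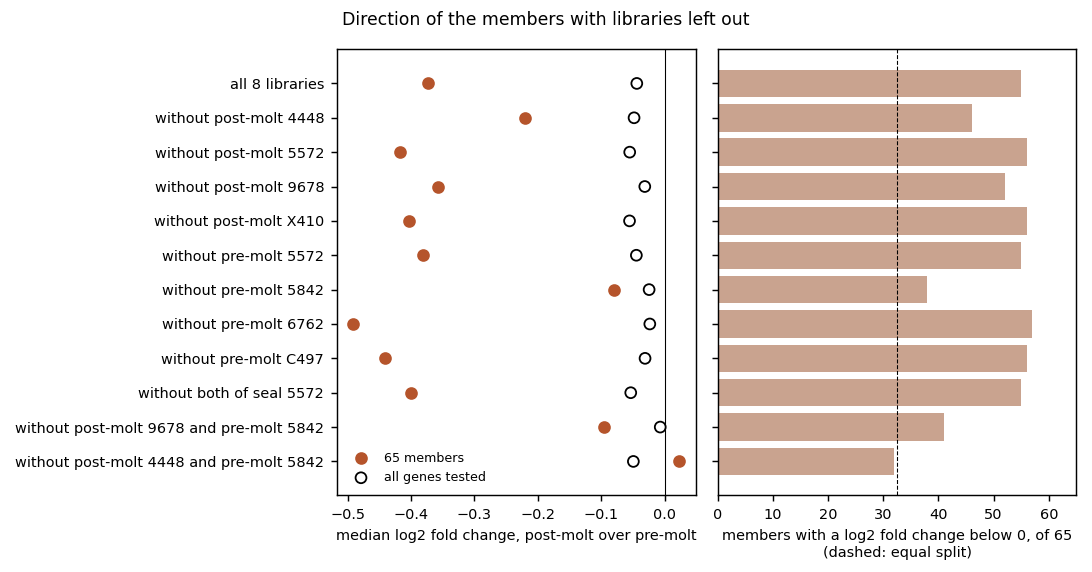
Median log2 fold change of post-molt over pre-molt (left, filled for the 65 genes and open for all genes tested) and number of the 65 genes below 0 (right, bars from 0) with all libraries and with libraries left out. The filled point lies at −0.37 with all libraries, at −0.08 without pre-molt seal 5842 and at 0.02 without post-molt seal 4448 and pre-molt seal 5842.

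Other gene groups also had their highest level in pre-molt seal 5842. The 91 cytosolic ribosomal protein genes tested, which form the protein-making ribosome, had a mean log2 CPM of 6.52, 7.03, 6.84 and 7.02 post-molt and of 7.50, 8.15, 7.28 and 7.18 pre-molt, with the lowest value again in post-molt seal 4448 and the highest in pre-molt seal 5842. Unlike in the set, all post-molt means were below all pre-molt means. Of the 9 fast-fiber genes tested, 9 had a log2 fold change below 0, where 53.6% of all genes did. Their summed level was 4670 to 7156 CPM post-molt and 8369 to 25699 CPM pre-molt, with the highest sum in seal 5842. The marker PVALB was at 0 in at least 1 library. The groups overlapped in each of the 9 genes, and in seal 5572 3 of the 9 were lower post-molt, where 49.6% of all genes were. The mean log2 CPM of the fast-fiber genes was lowest in pre-molt seal 6762, at 5.50. The 8 slow-fiber genes summed to 52819 to 75931 CPM post-molt and 43985 to 95007 CPM pre-molt, so these groups overlapped. Of these 8 genes, 5 had a log2 fold change below 0, and the median was −0.12. TNNC1 was among the 5, at −0.60 ± 0.34 (edgeR adjusted p = 0.569). ATP2A2, the calcium pump of the sarcoplasmic reticulum in slow fibers, was instead higher post-molt with no overlap. ATP2A2 had 6961, 6782, 8073 and 5304 CPM in the post-molt libraries, against 2956, 3235, 3279 and 3247 CPM in the pre-molt libraries. Its log2 fold change was 1.09 ± 0.20, with an adjusted p of 0.0419 in edgeR and 4.41e-08 in DESeq2. The 11 fibroblast genes tested were all below 0, where 53.6% of all genes were, with sums of 184 to 469 CPM post-molt and 439 to 1442 CPM pre-molt. In seal 5572 6 of the 11 were lower post-molt, where 49.6% of all genes were. FAP and TCF21 were at 0 in at least 1 library. The part of ribosomal, fiber-type and fibroblast RNA in the differences described here was not tested.

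In the matrix arm of complex I, 12 of the 16 subunits had a log2 fold change below 0, where 53.6% of all genes did, with a median of −0.36. At an unadjusted p under 0.05, 4 were lower and 1 higher, beside 6.22% lower and 5.2% higher among all genes tested. With pre-molt seal 5842 left out, 9 were below 0 and the median was −0.13. NDUFV1, the core subunit that binds NADH and carries the flavin, had 213, 239.9, 227 and 230.3 CPM in the post-molt libraries, against 407, 524, 273 and 289 CPM in the pre-molt libraries. All post-molt libraries were below all pre-molt libraries, and the post-molt values lay close together while the pre-molt values spread upward to seal 5842. The means were 228 ± 11.2 CPM post-molt and 373 ± 117 CPM pre-molt (SD, n = 4 each), and the fitted log2 fold change was −0.71 ± 0.23 (SE), with an adjusted p of 0.197 in edgeR and 0.0446 in DESeq2. Without pre-molt seal 5842 the log2 fold change was −0.48 ± 0.19, with an edgeR adjusted p of 0.435.

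NDUFV2, its partner in the NADH-oxidising module, which holds an iron-sulfur cluster, had 86.3, 116, 109.6 and 111 CPM in the post-molt libraries, against 167, 249.7, 132 and 119 CPM in the pre-molt libraries. These groups did not overlap either, but by a narrow margin between post-molt seal 5572 and pre-molt seal C497. NDUFV2 had a log2 fold change of −0.66 ± 0.24, with an adjusted p of 0.28 in edgeR and 0.119 in DESeq2. Leaving out pre-molt seal 5842 gave −0.37 ± 0.19, with an unadjusted edgeR p of 0.0709.

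NDUFS7, which carries the last iron-sulfur cluster before ubiquinone, had a log2 fold change of −0.57 ± 0.26 (edgeR adjusted p = 0.441), or −0.26 without pre-molt seal 5842. The core subunits NDUFS8, NDUFS3 and the large iron-sulfur subunit NDUFS1, lay at −0.32 ± 0.25, 0.05 ± 0.25 and −0.02 ± 0.25.

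NDUFA5, an accessory subunit of the matrix arm, was the gene of the set that stood furthest above 0. It had 44.4, 73.3, 88.4 and 74.9 CPM in the post-molt libraries, against 41.8, 62.4, 37.97 and 32.9 CPM in the pre-molt libraries. Post-molt seals 5572, 9678 and X410 were above every pre-molt library, and post-molt seal 4448 lay among the pre-molt values, below seal 5842, so that the groups overlapped. The log2 fold change was 0.68 ± 0.26, with an adjusted p of 0.299 in edgeR and 0.152 in DESeq2. Its direction was opposite to that of most of the set. Without pre-molt seal 5842 and post-molt seal 4448, its own highest pre-molt and lowest post-molt libraries, its log2 fold change was 1.08 ± 0.19, with an edgeR adjusted p of 0.102.

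NDUFA2, an accessory subunit with a thioredoxin-like fold, had 44.0, 64.7, 106 and 77.5 CPM in the post-molt libraries, against 118, 265, 86.0 and 84.2 CPM in the pre-molt libraries. Post-molt seal 9678 was above pre-molt seals 6762 and C497, and pre-molt seal 5842 was far above every other library. Its log2 fold change was −0.92 ± 0.37 (edgeR adjusted p = 0.348), and it was −0.37 without pre-molt seal 5842. The matrix-arm subunits above 0 beside NDUFA5, namely NDUFS3, NDUFA6 and NDUFA12, had log2 fold changes of 0.05 ± 0.25, 0.14 ± 0.27 and 0.15 ± 0.25, and NDUFS4, NDUFS6, NDUFA9, NDUFA7 and NDUFV3 lay between −0.45 for NDUFS4 and −0.05 for NDUFV3.

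In the membrane arm of complex I, 17 of the 19 subunits were below 0, with a median of −0.37, and 2 were lower at an unadjusted p under 0.05, where 53.6% of all genes were below 0 and 6.22% lower at that p. With pre-molt seal 5842 left out, 11 were below 0 and the median was −0.06. NDUFA3, a small membrane subunit, had 35.8, 52.6, 19.8 and 42.6 CPM in the post-molt libraries, against 73.7, 111, 56.5 and 50.9 CPM in the pre-molt libraries. The lowest value was in post-molt seal 9678 and the highest in pre-molt seal 5842, and the groups overlapped where post-molt seal 5572 exceeded pre-molt seal C497. This gave a log2 fold change of −0.95 ± 0.31, with an adjusted p of 0.219 in edgeR and 0.0706 in DESeq2.

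NDUFB1, a small subunit of the distal membrane arm, had 15.01, 17.2, 14.7 and 20.4 CPM in the post-molt libraries, against 27.1, 34.4, 19.7 and 18.2 CPM in the pre-molt libraries. Post-molt seal X410 was above pre-molt seals 6762 and C497, and the log2 fold change was −0.56 ± 0.25 (edgeR adjusted p = 0.42), or −0.34 ± 0.24 without pre-molt seal 5842. NDUFA10, an accessory subunit related to nucleoside kinases, had 75.9, 129, 103 and 128 CPM in the post-molt libraries, against 166, 189.7, 109.6 and 125 CPM in the pre-molt libraries, with a log2 fold change of −0.44 ± 0.23 (edgeR adjusted p = 0.542). In both genes pre-molt seals 5572 and 5842 stood above all other libraries, and the remaining pre-molt seals lay among the post-molt ones.

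NDUFB10, the membrane-arm subunit with the most reads, had 257, 376, 343 and 394 CPM in the post-molt libraries, against 476, 606, 337 and 276 CPM in the pre-molt libraries. The groups overlapped, and the log2 fold change was −0.31 ± 0.26 (edgeR adjusted p = 0.748). The subunits above 0 in this arm were NDUFC1 at 0.36 ± 0.25 and NDUFB2 at 0.23 ± 0.30, and the others lay between −0.55 for NDUFB4 and −0.04 for NDUFA1. NDUFAB1, the mitochondrial acyl carrier protein that is both a complex I subunit and part of mitochondrial fatty acid synthesis, had 72.2, 130.2, 99.4 and 140.3 CPM in the post-molt libraries, against 108, 153, 66.6 and 76.4 CPM in the pre-molt libraries, with overlapping groups and a log2 fold change of 0.13 ± 0.29 (edgeR adjusted p = 0.93).

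**Figure D4:**
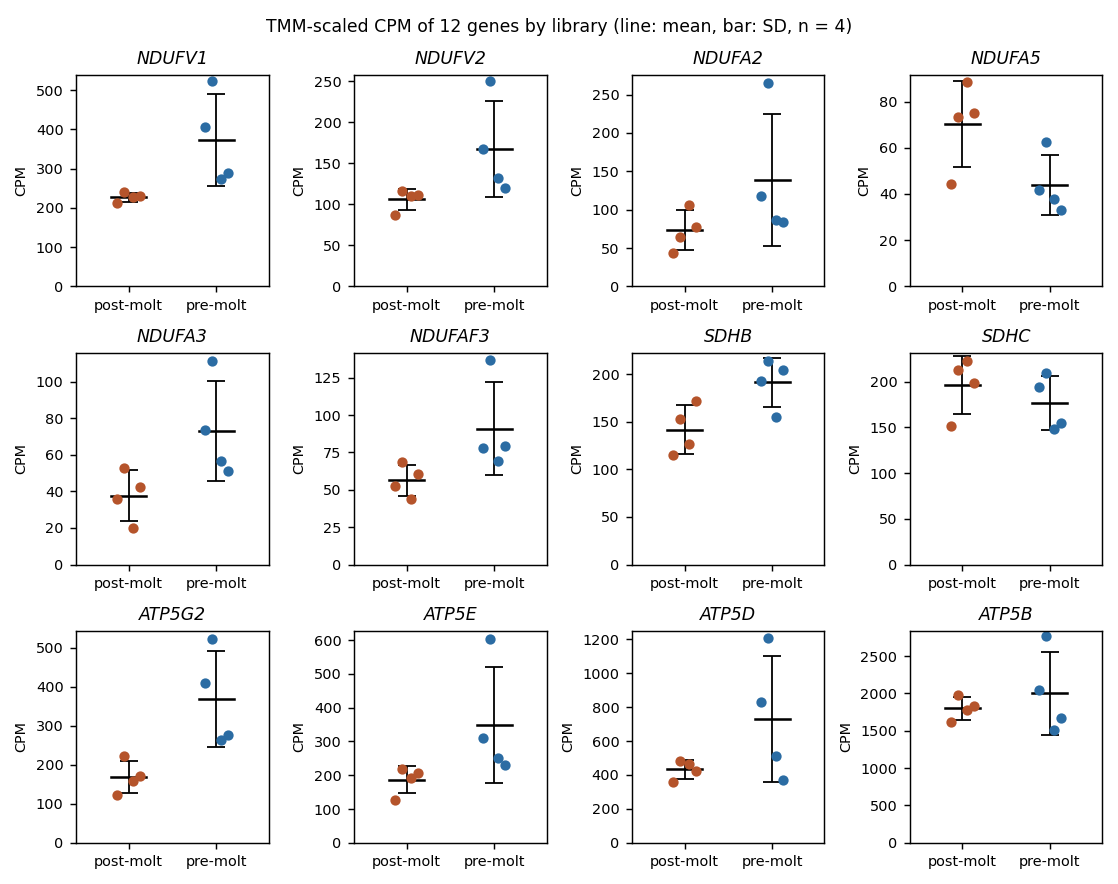
TMM-scaled CPM (y axes, from 0) of 12 genes in each post-molt (left) and pre-molt (right) library, with the mean as a line and the SD as a bar (n = 4 each). Pre-molt seal 5842 is the highest point in most panels, as in ATP5E at 604 CPM, while NDUFA5 is the panel with 3 post-molt points above all pre-molt points.

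The NDUFAF assembly factors, which help to build complex I and are not part of the finished enzyme, were all 8 below 0, where 53.6% of all genes were. Their median was −0.41, and 1 was lower at an unadjusted p under 0.05, where 6.22% of all genes were. Without pre-molt seal 5842, 4 were below 0 and the median was −0.10. NDUFAF3, which acts with NDUFAF4 early in the assembly of the matrix arm, had 52.4, 68.5, 43.9 and 60.3 CPM in the post-molt libraries, against 77.9, 137, 69.0 and 79.3 CPM in the pre-molt libraries. The groups did not overlap, although post-molt seal 5572 and pre-molt seal 6762 were nearly equal, and pre-molt seal 5842 was far above the others. Its log2 fold change was −0.69 ± 0.24, with an adjusted p of 0.258 in edgeR and 0.112 in DESeq2. Leaving out pre-molt seal 5842 gave −0.40 ± 0.19, with an unadjusted edgeR p of 0.0647.

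NDUFAF4 had 3.87, 9.30, 6.74 and 8.03 CPM in the post-molt libraries, against 8.68, 8.72, 13.1 and 14.3 CPM in the pre-molt libraries. It was the one named assembly factor in which pre-molt seals 6762 and C497, and not seal 5842, were highest, and its log2 fold change was −0.68 ± 0.34 (edgeR adjusted p = 0.496). NDUFAF8, which in humans works with the NDUFS7-modifying factor NDUFAF5, had 15.4, 19.2, 22.3 and 21.8 CPM in the post-molt libraries, against 27.7, 32.6, 18.7 and 25.2 CPM in the pre-molt libraries, with a log2 fold change of −0.41 ± 0.23 (edgeR adjusted p = 0.574). NDUFAF1, needed for the membrane arm, had 64.2, 85.7, 104 and 102 CPM in the post-molt libraries, against 98.4, 127, 75.8 and 78.8 CPM in the pre-molt libraries. It was the assembly factor with the smallest difference, at −0.10 ± 0.23 (edgeR adjusted p = 0.936). The remaining factors, NDUFAF2, NDUFAF5, NDUFAF6 and NDUFAF7, lay between −0.50 and −0.10, and NDUFAF5 was at 0.25 without pre-molt seal 5842. The 12 other complex I assembly genes tested, with symbols outside the NDUFAF family, had a median log2 fold change of 0.01 with 6 below 0, and 0 of them had an unadjusted p under 0.05 in either direction, as in the case of TMEM126A at 0.39 ± 0.30 and ECSIT at 0.23 ± 0.24.

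In complex II 3 of the 4 subunits were below 0, where 53.6% of all genes were. The median was −0.19, beside −0.35 for the complex I subunits and −0.34 for complex V. Without pre-molt seal 5842 the order was reversed, with medians of −0.16 for complex II, −0.06 for complex I and −0.08 for complex V, and the difference between complexes was not tested. SDHA, the flavoprotein that oxidises succinate, had 648, 781, 776 and 644 CPM in the post-molt libraries, against 1047, 839, 729 and 673 CPM in the pre-molt libraries. It was highest in pre-molt seal 5572, not 5842, and the groups overlapped, with a log2 fold change of −0.21 ± 0.20 (edgeR adjusted p = 0.799). SDHB, the iron-sulfur subunit, had 115, 153, 127 and 172 CPM in the post-molt libraries, against 193, 214, 155 and 204 CPM in the pre-molt libraries. Only post-molt seal X410 reached into the pre-molt range, above seal 6762, and the log2 fold change was −0.44 ± 0.20 (edgeR adjusted p = 0.415, unadjusted p = 0.0446).

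The membrane anchors SDHC and SDHD, which hold the heme and the ubiquinone site, showed no separation. SDHC had 151, 212, 222 and 199 CPM in the post-molt libraries, against 195, 209, 148 and 154 CPM in the pre-molt libraries, with a log2 fold change of 0.15 ± 0.20 (edgeR adjusted p = 0.865). SDHD had 112, 155, 126 and 167 CPM in the post-molt libraries, against 149, 162, 147 and 173 CPM in the pre-molt libraries, with a log2 fold change of −0.17 ± 0.19 (edgeR unadjusted p = 0.368). In both anchors pre-molt seal 5842 lay within or next to the range of the post-molt seals. Mean log2 CPM over the complex II genes was 7.56, 7.97, 7.84 and 7.94 post-molt and 8.11, 8.13, 7.80 and 7.94 pre-molt, so the excess of seal 5842 seen over the whole set was small here. Over the complex I subunits the mean was 6.07, 6.71, 6.57 and 6.73 post-molt and 6.85, 7.37, 6.36 and 6.44 pre-molt. Over the complex V subunits it was 7.25, 7.98, 7.78 and 7.91 post-molt and 8.15, 8.79, 7.64 and 7.62 pre-molt. In both of these complexes pre-molt seal 5842 was highest, seal 5572 next among the pre-molt libraries, and post-molt seal 4448 lowest. The mean over the complex V genes minus that over the complex II genes was 0.66 in pre-molt seal 5842, and between −0.32 and 0.04 in each of the other 7 libraries.

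In complex V, 12 of the 14 subunits were below 0, with a median of −0.34, and 3 were lower at an unadjusted p under 0.05, where 53.6% of all genes were below 0 and 6.22% lower at that p. With pre-molt seal 5842 left out, 8 were below 0 and the median was −0.08. The difference with the smallest p of the whole set was in ATP5G2, 1 of 3 genes that encode the c subunit of the proton-driven ring. ATP5G2 had 121, 223, 158 and 172 CPM in the post-molt libraries, against 409.7, 523, 264 and 276 CPM in the pre-molt libraries. Every post-molt library was below every pre-molt library, with the lowest value in seal 4448, and the lower pair of pre-molt seals, 6762 and C497, was still above all post-molt seals. The means were 169 ± 42.1 CPM post-molt and 368 ± 123 CPM pre-molt (SD, n = 4 each). The log2 fold change was −1.13 ± 0.27, with an adjusted p of 0.0807 in edgeR, 0.00264 in DESeq2 and 0.0588 in limma-voom, so that of these tools DESeq2 made the call at 0.05. With no filter on low counts the edgeR adjusted p was 0.0405. Without pre-molt seal 5842 it was −0.88 ± 0.24 (edgeR adjusted p = 0.184).

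The other c-ring genes differed less. ATP5G1 had 188, 424, 317 and 366 CPM in the post-molt libraries, against 412, 731, 248 and 288 CPM in the pre-molt libraries, with a log2 fold change of −0.37 ± 0.34 (edgeR adjusted p = 0.782). ATP5G3 had 106, 189, 143 and 137 CPM in the post-molt libraries, against 142, 255, 84.7 and 137 CPM in the pre-molt libraries, with a log2 fold change of −0.11 ± 0.30 (edgeR adjusted p = 0.949). Both overlapped between the groups and lay above 0 without pre-molt seal 5842, at 0.06 for ATP5G1 and 0.27 for ATP5G3.

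The make-up of the c-ring reads can be given within each library, which leaves out the library's general level. ATP5G2 took 29.2, 26.7, 25.6 and 25.5% of the reads of the 3 genes post-molt, against 42.5, 34.7, 44.2 and 39.4% pre-molt, or 26.7 ± 1.72% and 40.2 ± 4.20% (SD, n = 4 each). ATP5G3 took 25.4, 22.6, 23.1 and 20.3% post-molt, against 14.7, 16.9, 14.2 and 19.5% pre-molt. ATP5G1 took 45.4, 50.7, 51.3 and 54.2% post-molt, against 42.8, 48.4, 41.6 and 41.2% pre-molt. The share of ATP5G2 was lower in every post-molt library and that of ATP5G3 higher, and the shares of ATP5G1 overlapped. These shares were formed after the values were seen and are a description, with no test. The 3 genes encode near-identical mature proteins and the table counts uniquely aligned reads only, so reads shared between them are missing from it and the shares are uncertain by that amount.

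**Figure D5:**
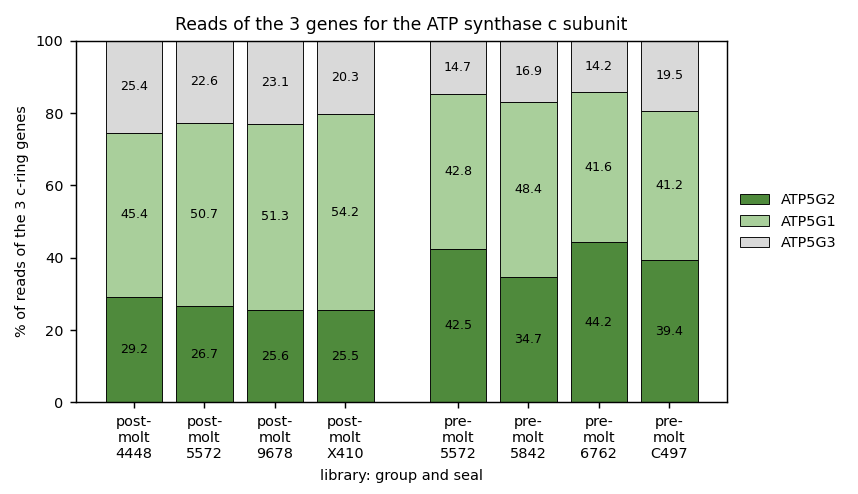
Percentage of the summed reads of ATP5G1, ATP5G2 and ATP5G3 (y axis) taken by each gene in each post-molt (left) and pre-molt (right) library. The ATP5G2 part is 25.5 to 29.2% in the post-molt libraries and 34.7 to 44.2% in the pre-molt libraries.

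Of the rotating central stalk, ATP5E, the epsilon subunit, had 128, 218, 193 and 207 CPM in the post-molt libraries, against 309.8, 604, 251 and 231 CPM in the pre-molt libraries. The groups did not overlap, with pre-molt seal 5842 far above the rest, and the log2 fold change was −0.90 ± 0.31, with an adjusted p of 0.233 in edgeR and 0.0667 in DESeq2. Leaving out pre-molt seal 5842 gave −0.48 ± 0.21 (edgeR adjusted p = 0.531). ATP5D, the delta subunit, had 358, 484, 466 and 426 CPM in the post-molt libraries, against 829.9, 1208, 509 and 373 CPM in the pre-molt libraries. Pre-molt seal C497 was within the post-molt range, and the log2 fold change was −0.75 ± 0.32 (edgeR adjusted p = 0.367), or −0.37 ± 0.25 without pre-molt seal 5842. ATP5C1, the gamma subunit that forms the shaft, lay at −0.30 ± 0.23.

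The F1 head, where ATP is made, differed less. ATP5B, the catalytic beta subunit and the gene of the set with the most reads, had 1617, 1982, 1772 and 1833 CPM in the post-molt libraries, against 2043, 2769.6, 1514 and 1669.6 CPM in the pre-molt libraries. The groups overlapped, and the log2 fold change was −0.15 ± 0.22 (edgeR adjusted p = 0.887), while the alpha subunit gene ATP5A1 lay at −0.21 ± 0.20. Of the peripheral stalk, which holds the head still, ATP5H and ATP5O lay at −0.53 ± 0.29 and −0.40 ± 0.26, and ATP5F1 and ATP5J at 0.16 ± 0.26 and 0.30 ± 0.31, none with an unadjusted p under 0.05. The small membrane subunit genes ATP5I and ATP5L lay at −0.76 ± 0.42 and −0.15 ± 0.29. USMG5, a further membrane subunit gene whose symbol is outside the ATP5 family, lay at −0.60 ± 0.37, and ATPIF1, the inhibitor of the enzyme, at −0.23 ± 0.35.

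Of the genes that share a symbol family but are not subunits here, NDUFA4, now assigned to complex IV, had 107, 247, 215 and 239 CPM in the post-molt libraries, against 273, 467, 219 and 172 CPM in the pre-molt libraries, with a log2 fold change of −0.49 ± 0.33 (edgeR adjusted p = 0.661). Its paralog NDUFA4L2, a target of hypoxia-inducible factor in human cells, had 0, 1.28, 0 and 1.53 CPM in the post-molt libraries, against 1.69, 2.13, 0.646 and 2.35 CPM in the pre-molt libraries. The 0 values in post-molt seals 4448 and 9678 allow up to 0.043 and 0.0968 CPM (3 counts per library), and because the gene rests on 437 reads in all, its log2 fold change of −1.28 ± 1.53 (edgeR adjusted p = 0.849) is imprecise. It was −3.77 ± 1.73 in limma-voom (adjusted p = 0.351), and between −1.995 and −0.86 in edgeR with 1 library left out, the ends being the fits without post-molt seals X410 and 4448. ATP5S, a gene for a factor linked to ATP synthase coupling in mammals, had 7.14, 11.6, 9.58 and 13.1 CPM in the post-molt libraries, against 16.0, 21.4, 12.5 and 15.7 CPM in the pre-molt libraries. Post-molt seal X410 exceeded pre-molt seal 6762, and the log2 fold change was −0.66 ± 0.28 (edgeR adjusted p = 0.369).

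In seal 5572, sampled at both times, 46 of the 65 genes were lower post-molt, where 49.6% of all genes tested were, and the median log2 ratio was −0.19, beside 0.00 over all genes. The log2 ratio was −0.88 for ATP5G2, −0.87 for NDUFA2, −0.78 for ATP5D, −0.76 for NDUFV1 and −0.53 for NDUFV2, and it was 0.81 for NDUFA5. ATP5G1 and SDHC lay close to no difference in this seal, at 0.04 and 0.13. These are values of 1 animal, with no replicate.

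Other genes of the respiratory chain and the mitochondrion, from lists written for comparison, were read beside the set. The electron carrier genes (3 tested) had a median log2 fold change of 0.02, with ETFA at −0.24 ± 0.23 and ETFDH at 0.15 ± 0.19. The 4 complex II assembly genes had a median of −0.21, with SDHAF4 at −1.26 ± 0.66 and SDHAF3 at −0.67 ± 0.37. SDHAF4 had 0.416, 2.06, 1.97 and 2.36 CPM in the post-molt libraries, against 3.52, 6.12, 4.19 and 2.47 CPM in the pre-molt libraries, and the post-molt libraries were all below the pre-molt libraries (edgeR adjusted p = 0.526). The 5 complex V assembly genes had a median of −0.13 with 4 below 0, while ATPAF1, which helps to assemble the F1 head, lay at 0.37 ± 0.18 and TMEM70 at −0.35 ± 0.30. ATPAF1 had 248, 269, 313 and 317 CPM in the post-molt libraries, against 214, 191, 241 and 241 CPM in the pre-molt libraries, and the post-molt libraries were all above the pre-molt libraries (edgeR adjusted p = 0.466). In none of these 3 lists did a gene reach an unadjusted p under 0.05 in edgeR.

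The 7 genes tested from a list related to the assembly of complexes III and IV had a median of 0.13. Of these, 1 was higher at an unadjusted p under 0.05, where 5.2% of all genes were. This was FASTKD2, with a log2 fold change of 0.78 ± 0.32 (edgeR adjusted p = 0.354), beside LYRM7 at 0.59 ± 0.41. The 12 regulators of respiratory chain genes had a median of 0.15 with 4 below 0. PERM1, a muscle protein induced by PGC-1 coactivators, had 145, 169, 136 and 135 CPM in the post-molt libraries, against 133, 80.9, 85.4 and 90.9 CPM in the pre-molt libraries. The post-molt libraries were all above the pre-molt libraries, narrowly so for pre-molt seal 5572, and the log2 fold change was 0.58 ± 0.20, with an adjusted p of 0.248 in edgeR and 0.0472 in DESeq2. GABPA, a subunit of the nuclear respiratory factor NRF-2, lay at 0.41 ± 0.20 (edgeR adjusted p = 0.468). The regulators were lowest as a list in pre-molt seal 5842, with a mean log2 CPM of 4.39 there, against 4.62 to 4.99 post-molt and 4.66 to 4.87 in the other pre-molt libraries.

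The 20 genes of mitochondrial carriers, import and matrix enzymes that were tested had a median of 0.01 with 9 below 0, and 5 were lower and 0 higher at an unadjusted p under 0.05, where 6.22% and 5.2% of all genes were. The same number, 5, were lower with no overlap between the groups, where 5.11% of all genes were. SLC25A3, the phosphate carrier that supplies the ATP synthase, had 632, 855, 816 and 819 CPM in the post-molt libraries, against 1344, 2150.4, 1105 and 904 CPM in the pre-molt libraries. The groups did not overlap, and the log2 fold change was −0.82 ± 0.26, with an adjusted p of 0.209 in edgeR and 0.0472 in DESeq2. PHB2, a prohibitin of the inner membrane, lay at −0.64 ± 0.21, with an adjusted p of 0.213 in edgeR and 0.0538 in DESeq2. The share of all named reads that fell on the 65 genes was 0.924 to 1.21% post-molt and 1.02 to 1.61% pre-molt, which overlapped.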

How the data were processed

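RNA-seq libraries of poly-A RNA from longissimus dorsi of adult female NES were used, 4 post-molt and 4 pre-molt. According to the labels and the study's methods, the authors made read files with bcl2fastq 2.20 and used STAR for alignment and gene counting against the genome of the Hawaiian monk seal. Their own differential test used DESeq2 1.18.1 under R 3.4.3. The deposited values are counts per gene, whole numbers with no scaling, of uniquely aligned reads. Neither source gives the strand setting, so genes that overlap on opposite strands cannot be told apart, and unique counting lowers genes with near-identical copies. The labels and the methods name different library kits. Of 24349 entries, 7 had no gene name and were dropped before scaling and testing (0.0115 to 0.0153% of the reads). Each pair of the 8 libraries was compared (28 pairs), with a lowest chi-square per degree of freedom of 84.1, so none was a copy of another.

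Genes were kept with filterByExpr (minimum count 10, minimum total 15), which left 14315 of 19404 genes with a count. Counts were scaled with TMM factors and tested with edgeR 4.0.16 (R 4.3.3), by its quasi-likelihood method, two-sided, post-molt over pre-molt, with Benjamini-Hochberg adjustment over all genes tested and a threshold of 0.05. SE is the absolute log2 fold change over the root of F. Log2 CPM used a prior count of 2. DESeq2 1.42.0 and limma-voom (limma 3.58.1) were alternatives, and the scripts were tested on simulated data. Other alternatives were RLE and upper-quartile scaling, the 20 most abundant genes left out, no filter on low counts, robust dispersion and left-out libraries. The p-values measure the spread between these seals, and 1 seal is in both groups.

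The genes and lists were chosen with earlier results of these data known. Genes were named by a rule: those past an adjusted p of 0.05 in edgeR or DESeq2, the 3 smallest p and the highest CPM in each group, the extremes of fold change, every complex II and c-ring gene, the symbols outside the subunits, and 2 genes from each other pathway list. Marker lists of cell and fiber types are given as sums, with ATP2A2, TNNC1 and ALAS2 named beside them. Further members and the c-ring shares were added after their values were seen. NDUFC2, ATP5SL, complexes III and IV and mitochondrially encoded genes were not analysed here, and 1 member of the set enters the counts but is not reported singly here.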

Additional observations from a re-analysis of the deposited data

Results flagged for a closer look

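Of 62 groups of 4 libraries checked over the named genes and set means, 1 held a library far from the others. NDUFAF3, an early assembly factor of complex I, had 137 CPM in pre-molt seal 5842, against 69.0 to 79.3 CPM in the other pre-molt libraries, and this gap took up 0.848 of the group's range, which is past the limit of Dixon's test at the 95% level. Chance alone flags about 1 in 20 groups. This is the library in which 56 of the 65 genes had their highest value.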

How the results depend on the processing

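With all libraries, RLE or upper-quartile scaling, removal of the 20 most abundant genes, limma-voom and robust dispersion left the counts of genes below 0 and at an unadjusted p under 0.05 within 1.5 times the values reported. Without a filter on low counts 1 gene was called, ATP5G2 (edgeR adjusted p = 0.0405), where 129 higher and 97 lower were called among all 19404 genes then tested. DESeq2 called 2, where it called 3.07% of all genes higher and 2.92% lower. Leaving out 1 library at a time gave 0 to 0 genes called, 4 to 17 lower and 0 to 3 higher at an unadjusted p under 0.05 (all genes 4.56 to 6.07% lower and 4.03 to 5.23% higher), 38 to 57 below 0, and medians of −0.49 to −0.08. Without both libraries of seal 5572, 7 genes were lower and 0 higher at that p, where 4.8% of all genes were lower and 4.16% higher. Without pre-molt seal 5842 and post-molt seal 9678, 2 were lower and 2 higher, where 4.3% and 4.79% of all genes were, and NDUFV1 was no longer among them (−0.48 ± 0.22, edgeR adjusted p = 0.566). Without pre-molt seal 5842 and post-molt seal 4448, chosen after the data were seen, 2 were lower and 7 higher, where 4.44% and 4% of all genes were, with 32 below 0 and a median of 0.0233. These are the set's highest pre-molt and lowest post-molt libraries, so leaving out either or both moves the set upward by construction.

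Some log2 fold changes of named genes turned sign. Over the fits that left out 1 library, ATP5B ran from −0.259 (without pre-molt seal 6762) to 0.0710 (without pre-molt seal 5842), and ATP5G1 from −0.555 to 0.0583, ATP5G3 from −0.305 to 0.266, NDUFAF1 from −0.187 to 0.101 and NDUFAB1 from −0.0217 to 0.428 in the same pair of fits. Without pre-molt seal 5842 and post-molt seal 9678 the values were 0.0833 for ATP5B, 0.0723 for ATP5G1, 0.273 for ATP5G3 and 0.0218 for NDUFAF1. Without pre-molt seal 5842 and post-molt seal 4448 they were 0.103 for ATP5B, 0.232 for ATP5G1, 0.374 for ATP5G3, 0.0840 for NDUFA4, 0.213 for NDUFAF1 and 0.0397 for NDUFB10. None of these had an adjusted p under 0.05, and the fits with left-out libraries rest on fewer samples.

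No paired analysis was possible because the groups share only 1 seal, 5572. NDUFA4L2, with 437 reads, is the gene most limited by depth.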
